A study of Mus musculus with 20 samples.

Results

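The 7 genes described here encode the enzymes that write, copy and remove cytosine methylation in mouse cells. Dnmt1 and Uhrf1 copy methylation at replication, Dnmt3a and Dnmt3b add it de novo, and Tet1, Tet2 and Tet3 begin its removal. They were chosen by name for these roles, with earlier results of these data known, and are 7 of the 43280 genes counted in the libraries. All 7 were found in the count tables and all 7 passed the filter on low counts in every fit.

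DNA methylation in mammals sits mostly on cytosines followed by guanine (CG). UHRF1 recognises CG sites methylated on only the old strand after replication and brings in DNMT1, while DNMT3A and DNMT3B can methylate CG sites that carry no mark on either strand. TET enzymes oxidise 5-methylcytosine, which is then lost by replication or by base excision repair. EED is a core subunit of Polycomb repressive complex 2, which methylates lysine 27 of histone H3 and often acts at CG-rich promoters that lack DNA methylation.

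The study set out to define the part of chromatin in signalling between cells of the developing gut. It deleted Eed in the embryonic gut mesenchyme and in the mesenchyme of the adult intestine. Embryonic mesenchyme came from embryos at E13.5, labelled C57BL/6, although the methods of the study describe mixed backgrounds and both sexes. Control embryos carried Bapx1-cre and the Rosa26mTmG reporter, and Eed KO embryos carried Eedfl/fl with the same Cre driver and reporter, so Cre and reporter are common to both genotypes. Bapx1-cre acts where Bapx1 (listed as Nkx3-2) has been active in the gut mesenchyme, and GFP+ cells were sorted from the stomach and the intestine of each animal after microdissection. RNA was measured in 2 libraries for each of 4 embryonic groups, and open chromatin was measured by ATAC-seq, which the authors deposited as 4 peak lists, 1 for each group with replicates pooled. Adult intestinal mesenchyme, labelled WT and EED-KO, gave 2 RNA libraries per genotype. In the methods, the adult animals carry Pdgfrb-CreERT2 and Rosa26mTmG, with Eedfl/fl in the Eed KO, and GFP+ cells were sorted from the small intestine at about 10 weeks of age. Tamoxifen, which activates CreERT2, is described as 100 mg per kg per day for 5 days, with dissection 2 days after the last dose in the animals examined for phenotype. Strain and treatment are not on the adult labels, and which libraries share an embryo, a litter or a pool of embryos is not given in the sources used here, so p-values measure the spread between these libraries. Age, driver, library kit and strand setting all differ between embryonic and adult libraries and cannot be told apart, so no test was made between ages.

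Embryonic libraries held between 30236159 and 39606157 gene counts, and adult libraries between 11404712 and 15903642. Levels are given as CPM, the depth-scaled count, after TMM scaling, which sets libraries on a common scale through the bulk of the genes. Where genes are compared with each other they are given as TPM, which also divides by gene length. The floor of what can be measured, 3 counts, stands for 0.0757 to 0.0992 CPM per embryonic library and 0.189 to 0.263 CPM per adult library. These floors, and the counting intervals given later, cover counting error only.

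The markers of mesenchyme were abundant in every embryonic library, with the 8 marker genes summing to between 13210 and 24910 CPM. Col1a1, a fibrillar collagen, was the most abundant of them by TPM in all 4 stomach libraries, while Col3a1 was above it in CPM. Epithelial markers summed to between 66.6 and 120 CPM, macrophage and leukocyte markers to between 4.77 and 13.0 CPM, and lymphocyte markers to between 0.102 and 0.393 CPM in the same libraries. Erythroid markers reached at most 20.6 CPM and enteric neural crest markers at most 11.4 CPM. The adult controls also carried mesenchymal markers, at 22290 and 24750 CPM, with the proteoglycan gene Dcn the most abundant by TPM. The adult Eed KO libraries differed in marker RNA: mesenchymal markers summed to 13020 and 12240 CPM, while the 10 macrophage and leukocyte markers summed to 20600 and 18960 CPM, against 704 and 1012 CPM in the adult controls. Lyz2 was the most abundant of these 10 genes by TPM in all 4 adult libraries, and none of the 10 was at 0. The 8 lymphocyte markers summed to 2111 and 2315 CPM in the adult controls and to 775.3 and 770.5 CPM in the adult Eed KO. Igj, the listed name of Jchain, was the most abundant of these 8 by TPM in all 4 adult libraries. The 10 most abundant genes of any kind took 16.9% and 18.7% of the counts in the adult Eed KO libraries and 10.9% and 11.2% in the adult controls. In bulk RNA, fewer cells of a type and less RNA per cell cannot be told apart, and the part these markers play in the adult results was not tested.

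The embryonic Eed KO libraries stood apart from each other. Ddx3y, a Y-linked gene looked up after the values were seen, was at 119 and 0 CPM in Eed KO intestine replicates 1 and 2 and at 132 and 0.0549 CPM in Eed KO stomach replicates 1 and 2. Xist, which marks the inactive X chromosome of females, was at 0.0792 and 56.1 CPM in the same intestine libraries and at 0.0537 and 52.2 CPM in the same stomach libraries. Replicate 1 thus held Y-linked RNA without Xist in both organs and replicate 2 held Xist without Y-linked RNA. The control libraries held both, with Ddx3y at 45.2 and 69.1 CPM in intestine and 30.5 and 80.3 CPM in stomach. Sex and replicate number cannot be told apart within the Eed KO groups, and none of the 7 genes lies on a sex chromosome: they lie on chromosomes 9, 17, 12, 2, 10, 3 and 6 in the order in which they are described. In adult libraries Ddx3y did not exceed 0.0732 CPM and Xist lay between 53.0 and 66.6 CPM.

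Synthetic spike-in transcripts took 0.072% and 0.0887% of counts in control intestine, 0.11% and 0.0909% in control stomach, 0.0403% and 0.0152% in Eed KO intestine and 0.0337% and 0.0134% in Eed KO stomach. When these totals replace TMM as the scale, the median of all genes moves by 2.39 on the log2 scale in the stomach comparison and by 1.85 in the intestine comparison, toward higher levels in the Eed KO. In adult intestine the median moves by -0.42, between the control organs by 0.30, and in the interaction of organ and genotype by -0.53. Every statement of higher or lower that follows is relative to the median of all genes.

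Eed itself was at 38.1 and 40.1 CPM in control intestine and at 10.7 and 8.59 CPM in Eed KO intestine. In the stomach it was at 40.1 and 41.5 CPM in controls and at 11.5 and 7.40 CPM in the Eed KO. All 4 embryonic Eed KO libraries were far below all 4 controls, with log2 fold changes of -2.02 (SE 0.21) in intestine and -2.11 (SE 0.21) in stomach and edgeR adjusted p-values of 0.00464 and 0.00175. In adult intestine Eed was at 29.7 and 33.4 CPM in controls and at 25.7 and 25.0 CPM in the Eed KO. The adult groups did not overlap, but the log2 fold change of -0.32 (SE 0.21) did not pass the test (edgeR adjusted p = 0.317). As TPM, which has no scaling for composition, adult Eed was at 34.8 and 38.1 in controls and at 21.2 and 18.6 in the Eed KO. Which exons the floxed allele loses is not given in the sources used here, the gene-level count does not separate them, and Eed overlaps an antisense gene, Gm26529, over 235 bp, which the unstranded adult counts cannot separate.

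Ordered by TPM, Uhrf1 stood highest of the 7 in control intestine, at 133 and 133 TPM. Dnmt1, at 71.2 and 96.9 TPM, and Dnmt3a, at 77.7 and 83.3 TPM, came next and overlapped each other. Tet3 (22.6 to 29.0 TPM), Tet1 (10.5 to 11.2 TPM), Dnmt3b (8.08 to 8.12 TPM) and Tet2 (2.73 to 3.74 TPM) followed without overlap between neighbours. Control stomach had the same order apart from the overlapping pair of Dnmt3a and Dnmt1, with Uhrf1 between 103 and 116 TPM and Tet2 between 2.27 and 2.59 TPM. In Eed KO stomach, Uhrf1, Dnmt3a and Dnmt1 overlapped, at means of 88.5, 87.6 and 80.2 TPM, and Tet2, at 5.62 and 6.10 TPM, was still the lowest in each library. In Eed KO intestine the ranges of Uhrf1, Dnmt1 and Dnmt3a overlapped, as did those of Tet1 and Dnmt3b. In the adult intestine all 7 genes had group means of 6.73 TPM or less. Dnmt1 led the controls at 5.92 and 5.45 TPM, and Dnmt3a followed at 5.89 and 3.11 TPM. The lower 5 genes had control means between 1.40 and 3.16 TPM. Among them Tet2 was at 4.65 and 1.68 TPM, a range that held its values in both embryonic control groups. In adult controls no gene was separated in range from its upper neighbour. In the adult Eed KO Dnmt3a led, at 5.91 and 7.54 TPM, above Dnmt1 at 3.62 and 3.05 TPM.

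**Figure D1:**
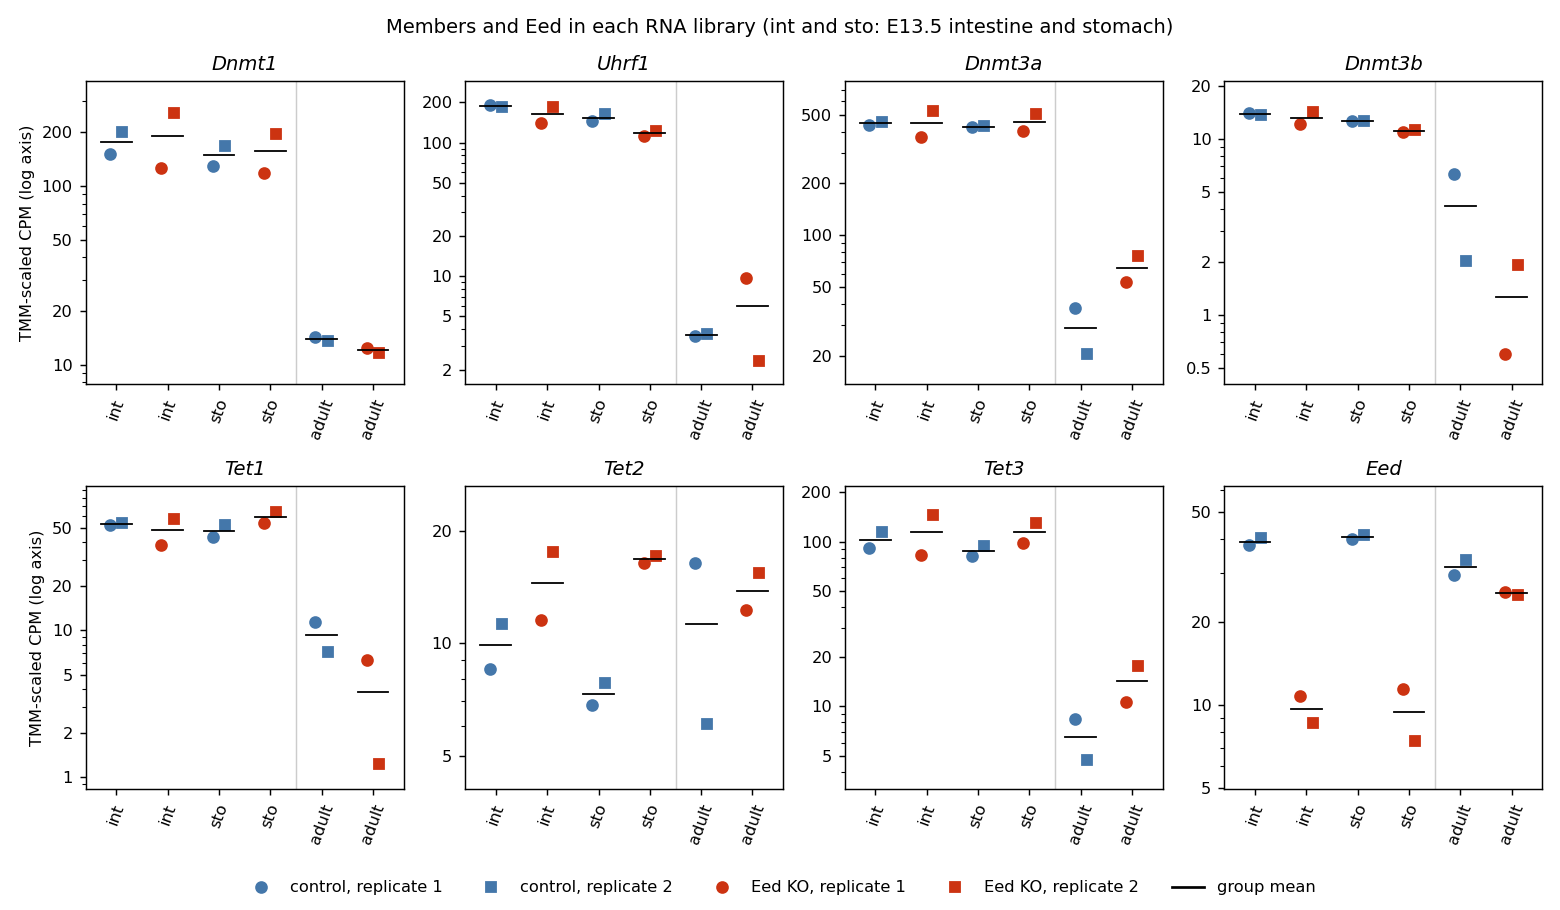
TMM-scaled CPM (log axis) of the 7 genes and Eed in each of 12 RNA libraries, control in blue and Eed KO in red, with replicate 1 as circles, replicate 2 as squares and the group mean as a line; the vertical line separates embryonic from adult libraries, which were scaled apart. Eed is low in the 4 embryonic Eed KO libraries, and both Tet2 values of Eed KO stomach (16.4 and 17.1 CPM) lie above both control values (6.84 and 7.83 CPM).

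Dnmt1, the maintenance methyltransferase, was at 152 and 201 CPM in control intestine and at 126 and 258 CPM in Eed KO intestine. Stomach levels were 130 and 168 CPM in controls and 118 and 196 CPM in the Eed KO. In both organs the Eed KO pair spanned the control pair, with replicate 1 below and replicate 2 above both controls. In adult intestine Dnmt1 was at 14.3 and 13.6 CPM in controls and at 12.4 and 11.7 CPM in the Eed KO, a small gap without overlap. Here and for the genes below, a lack of overlap is common with 2 libraries per group. Of all genes tested, 55% had it in the stomach, 38.3% in the intestine and 65.3% in adult intestine.

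Uhrf1, which recognises hemimethylated CG sites for DNMT1, was at 192 and 186 CPM in control intestine and at 141 and 185 CPM in Eed KO intestine. Stomach controls held 144 and 163 CPM and the Eed KO held 112 and 123 CPM. Both Eed KO stomach libraries were below both stomach controls, and in intestine replicate 1 was low while replicate 2 nearly met the controls. In adult intestine Uhrf1 was at 3.59 and 3.71 CPM in controls and at 9.63 and 2.32 CPM in the Eed KO, so that the Eed KO pair spanned the controls.

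Promoter windows of these 2 genes are shown because RefSeq gives each more than 1 start and the starts differ in CG content. Each window runs from 250 bases before to 50 bases after a RefSeq start (GRCm38.p6), 5′ to 3′ on the gene's strand, with every CG in capitals. Dnmt1 lies on the minus strand, and the outermost of its 3 starts is 6909 and 7265 bp upstream of the others. The outermost window (chr9:20959839-20960138) held 2 CG, the innermost (chr9:20952574-20952873) 33, and the inner window of Uhrf1 (chr17:56304063-56304362, plus strand) 33.
Dnmt1 outermost start: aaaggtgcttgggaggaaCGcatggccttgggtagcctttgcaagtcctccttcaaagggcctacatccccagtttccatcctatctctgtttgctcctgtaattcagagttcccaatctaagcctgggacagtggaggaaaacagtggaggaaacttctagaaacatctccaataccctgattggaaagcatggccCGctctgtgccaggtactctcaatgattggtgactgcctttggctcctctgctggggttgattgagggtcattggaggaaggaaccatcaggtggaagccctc
Dnmt1 innermost start: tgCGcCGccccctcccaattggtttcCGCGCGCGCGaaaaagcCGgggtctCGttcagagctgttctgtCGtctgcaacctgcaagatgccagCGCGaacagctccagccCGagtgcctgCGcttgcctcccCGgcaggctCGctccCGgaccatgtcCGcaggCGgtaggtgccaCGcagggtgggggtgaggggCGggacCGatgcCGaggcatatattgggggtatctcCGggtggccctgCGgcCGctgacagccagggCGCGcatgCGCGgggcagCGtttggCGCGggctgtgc
Uhrf1 inner start: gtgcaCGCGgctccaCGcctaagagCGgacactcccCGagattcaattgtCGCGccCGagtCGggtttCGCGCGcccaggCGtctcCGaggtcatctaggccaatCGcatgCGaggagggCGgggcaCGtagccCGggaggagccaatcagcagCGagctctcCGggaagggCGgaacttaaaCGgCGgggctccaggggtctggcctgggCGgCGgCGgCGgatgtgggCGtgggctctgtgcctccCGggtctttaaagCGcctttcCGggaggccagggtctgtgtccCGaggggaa

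No peak of any list touched the 1000 bp on either side of the outermost Dnmt1 start. A peak covered both inner starts in all 4 lists, with a fold enrichment of 7.27 in control intestine, 6.76 in Eed KO intestine, 7.79 in control stomach and 7.70 in Eed KO stomach. At Uhrf1 a peak covered both starts in all 4 lists, with fold enrichments of 5.94, 5.59, 5.80 and 5.85 in the same order. The lists come from pooled replicates, so these heights carry no error, and the same peak in control and Eed KO differed by less than 1 unit of fold at both genes. Letters bound by E2F factors, which drive genes of S phase, were searched for after the values were seen, as TTTGGCGC, TTTCCCGC, TTTGCCGC or TTTCGCGC on either strand. They occur in 2.26% of all 32851 promoter windows of this length, and among the 12 windows of the 7 genes they occurred in the innermost Dnmt1 window, at bases 32 and 284 from its 5′ end, and in the inner Uhrf1 window, at base 66. The letters GCGCATGCG, known from NRF1, occur in 1.75% of all windows and were found in both inner Dnmt1 windows. All of these strings hold a CG, and the shares over all windows, with a median of 7 CG, are not matched for CG content. A match describes the letters of the window and no binding was measured.

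Dnmt3a, a de novo methyltransferase, was at 439 and 456 CPM in control intestine and at 374 and 523 CPM in Eed KO intestine. The stomach values were 424 and 429 CPM in controls and 405 and 502 CPM in the Eed KO. The controls were close together and the Eed KO pair spanned them in both organs, as for Dnmt1. In adult intestine Dnmt3a was at 37.7 and 20.5 CPM in controls and at 53.7 and 76.3 CPM in the Eed KO, where both libraries were above both controls. Dnmt3a overlaps its antisense gene Dnmt3aos over 133 bp, and the adult counts were made without strand, so reads of that stretch cannot be assigned to either.

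Dnmt3b, the other de novo enzyme, was at 14.0 and 13.6 CPM in control intestine and at 12.2 and 14.3 CPM in Eed KO intestine. In the stomach it was at 12.8 and 12.6 CPM in controls and at 11.0 and 11.2 CPM in the Eed KO, slightly below the controls. In adult intestine it was at 6.29 and 2.03 CPM in controls and at 0.602 and 1.93 CPM in the Eed KO. The highest adult Eed KO value lay just under the lowest adult control, and the lowest rests on 6 counts.

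RefSeq gives Dnmt3a 3 starts, and the windows of the outermost (chr12:3806730-3807029) and the innermost (chr12:3891494-3891793) are shown because their CG content differs while both lie in open chromatin. Both run 5′ to 3′ on the plus strand of GRCm38.p6, with every CG in capitals, and hold 46 and 18 CG.
Dnmt3a outermost start: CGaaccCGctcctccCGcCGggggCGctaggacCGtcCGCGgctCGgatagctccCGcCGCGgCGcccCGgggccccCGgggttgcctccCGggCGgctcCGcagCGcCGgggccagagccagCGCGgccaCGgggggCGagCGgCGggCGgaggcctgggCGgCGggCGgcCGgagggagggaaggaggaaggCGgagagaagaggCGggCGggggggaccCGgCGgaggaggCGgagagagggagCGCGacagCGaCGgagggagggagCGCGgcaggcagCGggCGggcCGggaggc
Dnmt3a innermost start: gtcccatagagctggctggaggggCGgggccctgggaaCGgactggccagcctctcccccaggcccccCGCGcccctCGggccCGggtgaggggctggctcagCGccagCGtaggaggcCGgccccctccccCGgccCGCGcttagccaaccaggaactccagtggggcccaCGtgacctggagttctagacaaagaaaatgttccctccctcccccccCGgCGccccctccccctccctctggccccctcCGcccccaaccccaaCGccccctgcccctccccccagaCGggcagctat

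Peaks covered the outer Dnmt3a starts with fold enrichments of 3.26, 3.42, 3.06 and 3.25 in control intestine, Eed KO intestine, control stomach and Eed KO stomach, and the innermost start with 3.42, 3.41, 3.58 and 3.47. At the start of Dnmt3b the peak had a fold enrichment of 8.39 in control intestine, 6.28 in Eed KO intestine, 6.53 in control stomach and 6.50 in Eed KO stomach. A second Dnmt3b peak, about 19.5 kb into the gene, had 5.78 and 4.71 in control intestine and control stomach and 10.3 and 7.44 in Eed KO intestine and Eed KO stomach. It was the Dnmt3b peak with the clearest gap between genotypes in both organs, and was singled out after its values were seen. In both organs it was called over a narrower region in the Eed KO, so these heights do not cover the same bases. Dnmt3b RNA did not pass the test in either organ.

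Tet1, an oxidase that carries its own CG-binding domain, was at 52.6 and 54.0 CPM in control intestine and at 38.4 and 57.9 CPM in Eed KO intestine. In stomach Tet1 was at 43.0 and 52.3 CPM in controls and at 54.4 and 64.4 CPM in the Eed KO. The stomach groups did not overlap, as for 55% of all genes tested, with the Eed KO higher. In intestine the Eed KO pair spanned the controls. In adult intestine Tet1 was at 11.5 and 7.15 CPM in controls and at 6.32 and 1.24 CPM in the Eed KO, where both libraries were below both controls.

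Tet2, an oxidase without a CG-binding domain of its own, was at 8.51 and 11.3 CPM in control intestine and at 11.5 and 17.5 CPM in Eed KO intestine. In the stomach it was at 6.84 and 7.83 CPM in controls and at 16.4 and 17.1 CPM in the Eed KO. In CPM all 4 embryonic Eed KO libraries were above all 4 controls, by a small gap in the intestine. Within each organ a lack of overlap between genotypes was common, at 55% of all genes tested in the stomach and 38.3% in the intestine. The share of all genes without overlap across both organs together was not counted. As TPM the intestine groups overlapped, at 2.73 and 3.74 in controls and 3.71 and 5.95 in the Eed KO. In adult intestine Tet2 was at 16.4 and 6.10 CPM in controls and at 12.2 and 15.4 CPM in the Eed KO, which lay between the controls.

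Tet3, the most abundant Tet gene of the embryonic libraries, was at 91.9 and 114 CPM in control intestine and at 83.8 and 146 CPM in Eed KO intestine. For the stomach the values were 81.8 and 94.7 CPM in controls and 98.6 and 131 CPM in the Eed KO, both above both controls. In adult intestine Tet3 was at 8.34 and 4.69 CPM in controls and at 10.6 and 17.7 CPM in the Eed KO, without overlap on this scale. As TPM the adult groups overlapped, at 1.81 and 0.989 in controls and 1.62 and 2.43 in the Eed KO.

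Within the Tet family the makeup by TPM differed between ages and, for Tet2, between embryonic genotypes. Tet3 made up between 60.0% and 67.5% of the summed Tet TPM in the 8 embryonic libraries. Tet2 made up between 6.93% and 8.52% in the 4 embryonic controls and between 10.6% and 13.1% in the 4 embryonic Eed KO libraries, with no overlap. In the 4 adult libraries Tet2 was the largest share, between 43.1% and 54.7%, and Tet1 made up 23.9% or more in both controls and 16.2% or less in both Eed KO libraries. These shares are descriptions without a test.

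**Figure D2:**
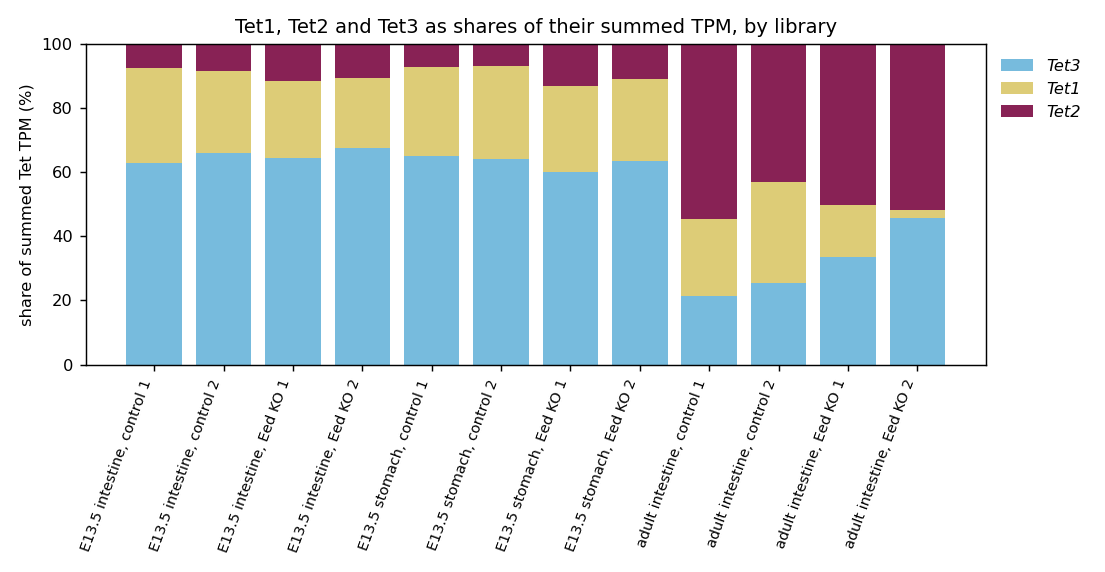
Share of the summed TPM of Tet1, Tet2 and Tet3 (percent, stacked bars) in each RNA library, grouped by age, organ and genotype. Tet3 leads in every embryonic library, and Tet2 is larger in each embryonic Eed KO library (10.6% to 13.1%) than in each embryonic control (6.93% to 8.52%).

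The Tet2 promoter is shown because edgeR called Tet2 in the stomach and because of its CG content. The window (chr3:133544341-133544640, minus strand, GRCm38.p6, 5′ to 3′, CG in capitals) held 57 CG, and 36 of the 32851 promoter windows held more.
Tet2: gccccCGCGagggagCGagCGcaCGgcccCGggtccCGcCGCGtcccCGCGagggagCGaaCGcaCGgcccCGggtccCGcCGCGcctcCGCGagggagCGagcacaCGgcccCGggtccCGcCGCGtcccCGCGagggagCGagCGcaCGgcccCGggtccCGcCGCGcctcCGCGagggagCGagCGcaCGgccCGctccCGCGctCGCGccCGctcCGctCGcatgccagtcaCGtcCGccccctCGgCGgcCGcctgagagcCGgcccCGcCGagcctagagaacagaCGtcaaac

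A peak covered the Tet2 start in all 4 lists, with fold enrichments of 6.37 in control intestine, 5.59 in Eed KO intestine, 5.88 in control stomach and 5.95 in Eed KO stomach. A peak covered the start in both genotypes and its height in Eed KO stomach was close to that in control stomach. Other Tet2 peaks were listed only in the Eed KO lists, 2 in intestine and 1 in stomach, at fold enrichments between 2.04 and 3.48. The 2 in intestine (2.45 and 2.04) were below the median of 3.49 over all peaks of that list, and the 1 in stomach (3.48) was near its median of 3.65. The reverse was seen at Uhrf1, where a second peak about 6 kb in (2.59 and 2.73) was in both control lists and in neither Eed KO list. A peak absent from a list is not shown to be absent from the cells.

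Between the control organs, all 7 genes had a positive log2 fold change of intestine over stomach, from 0.07 for Dnmt3a to 0.43 for Tet2 (SE 0.23). edgeR called 0 of the 7 genes, against 6.83% of all genes tested, at an adjusted p under 0.05; 0 had an unadjusted p under 0.05, and DESeq2 called 0. By the rule of the study for differentially expressed genes (DEGs), which also asks for a log2 fold change over 1 in size, 5.07% of all genes passed and 0 of the 7 did. The study applied these thresholds to DESeq2 values after a spike-in correction, and here they are applied to edgeR values on the TMM scale. Uhrf1 had the smallest edgeR adjusted p (0.342), with a log2 fold change of 0.30 (95% interval -0.03 to 0.62). With the replicate block within genotype, which treats same-numbered organs of a genotype as 1 source, edgeR called Uhrf1 (0.30, adjusted p = 0.0486) and 4 of the 7 had an unadjusted p under 0.05. The count of all genes called then went from 1107 to 2595, and to 1728 with the plain replicate block. The median of the 7 was 0.22, and that of all genes 0.00. None of 74 tested genes of the 6 lists of related genes (cofactors, demethylation partners and repair, methyl-CpG readers, methyl donor supply, germline genes, S phase and mitosis genes) was called by edgeR, and 6 had an unadjusted p under 0.05.

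Among cell type markers the control organs did differ. Pecam1 and Cdh5, both endothelial, were 5.68-fold and 3.49-fold higher in intestine, and 4 of 7 endothelial markers passed (Emcn and Cldn5 also), against 2.4% of all genes called higher, although their summed level was low, at 15.9 and 20.8 CPM in intestine and 15.5 and 14.9 CPM in stomach. Cldn5 was at 23 counts in control intestine and 1 count in control stomach, a ratio of 26 with a 95% counting interval of 4.22 to 1070 (Clopper-Pearson). Single genes of other lists were called lower in intestine, Dcn (log2 fold change -1.81), the epithelial gene Epcam (-1.83) and the mesothelial gene Wt1 (-1.04), or higher, the muscle gene Des (1.18) and Lyz2 (0.97). Of 8 mesenchymal, 7 epithelial and 4 mesothelial genes tested, 4, 2 and 1 had a positive log2 fold change, with medians of 0.01, -0.41 and -0.46. All 6 smooth muscle and all 3 macrophage and leukocyte genes tested had a positive value, with medians of 0.38 and 0.54. Enteric neural crest (0 of 6) and erythroid cells (0 of 4) gave no call by edgeR, with 1 and 0 genes at an unadjusted p under 0.05, and no lymphocyte marker was tested in the embryo. The part of these markers in the members' values was not tested.

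In the stomach, Eed loss went with more Tet2 RNA. The log2 fold change was 1.19 (SE 0.23, 95% interval 0.66 to 1.72), a 2.28-fold difference, higher in 2 of 2 Eed KO libraries, with an edgeR adjusted p of 0.0218. Tet2 was the only gene of the 7 called, against 7.91% of all genes tested (967 higher and 316 lower), and it also met the DEG rule on edgeR values, as did 5.65% of all genes. With DESeq2 and 1 spike-in factor, the alternative nearest to the procedure of the study, Tet2 did not meet it.

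Uhrf1 had a log2 fold change of -0.39 (SE 0.14, 95% interval -0.72 to -0.06), lower in 2 of 2 libraries, and passed only before adjustment (edgeR adjusted p = 0.151). With the replicate block edgeR also called Uhrf1 (-0.39, adjusted p = 0.0464), and the count of all genes called went from 1283 to 2474. Tet3 (0.38, SE 0.26), Tet1 (0.32, SE 0.20), Dnmt3a (0.09), Dnmt1 (0.07) and Dnmt3b (-0.19) had adjusted p-values of 0.398 or more by edgeR. The median of the 7 was 0.09, and that of all genes 0.00.

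The Tet2 call was lost in some of the alternatives. Without control stomach replicate 1 or 2 the edgeR adjusted p was 0.144 and 0.112, and without Eed KO stomach replicate 1 or 2 it was 0.0645 and 0.104, while the log2 fold change stayed between 1.10 and 1.29. In an alternative chosen after seeing the data, which left out both Eed KO libraries of replicate 1 or of replicate 2, it was 0.0183 and 0.0344, and over all alternatives it ran from 0.000106 to 0.385. The highest value came from DESeq2 with 1 spike-in factor, where Tet2 had a log2 fold change of 0.69 and instead Dnmt1 (-1.32), Dnmt3a (-0.56) and Uhrf1 (-0.86) were called. On the spike-in scale all 7 were called, as were most genes tested, with the median of all genes moved by 2.39. Tet2 was 1.20 above that median. The split of all genes called changed as well, from 75.4% higher to 99.9% on the spike-in scale and 38.2% with the spike-in factor.

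Of 24 genes of S phase and mitosis tested in Eed KO stomach, edgeR called 10 lower and 0 higher and left 14 without a call, against 1.95% of all genes called lower. The median log2 fold change of the 24 was -0.41. Ccne2, a cyclin of S phase entry, had -0.62 (SE 0.12, edgeR adjusted p = 0.0197), Gmnn, the replication licensing inhibitor, -0.56 (SE 0.11, 0.0219), and Cdc6, a licensing factor, -0.53 (SE 0.12, 0.0396). Ccne2 was at 48.6 and 56.9 CPM in controls and at 36.0 and 32.7 CPM in the Eed KO, Gmnn at 32.6 and 32.6 CPM against 22.4 and 21.8 CPM, and Cdc6 at 35.5 and 43.8 CPM against 27.9 and 26.9 CPM. These 3 genes did not overlap between genotypes, nor did 55% of all genes tested. Uhrf1, whose level follows the cell cycle in many cells, had a log2 fold change close to the median of this list, and the part of cycling in its value was not tested.

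The other lists of the methylation machinery held no call in the stomach. Among cofactors 0 of 10 tested genes were called by edgeR, among demethylation partners and repair 0 of 13, among methyl-CpG readers 0 of 8 and among methyl donor supply 0 of 8, while 1, 5, 2 and 3 of them had an unadjusted p under 0.05. Their medians were 0.01, 0.17, 0.02 and -0.11. Among germline genes with promoters methylated in somatic cells, 1 of 11 tested was called, in the lower direction. That gene was Sycp1, a component of the meiotic synaptonemal complex, at 1.16 and 1.25 CPM in controls and at 0.0537 and 0 CPM in the Eed KO. Its 89 control counts against 2 Eed KO counts give a ratio of 44.5 (95% counting interval 12 to 373, Clopper-Pearson). The other 10 gave no call, and the median of the 11 was 0.21.

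Of 7 endothelial markers in Eed KO stomach edgeR called 5 higher and left 2 without a call, against 5.96% of all genes called higher. Cdh5 (13.0-fold), Pecam1 (6.84-fold) and Tie1 (4.49-fold) passed, as did Emcn, at 5 and 1 counts in controls and 30 and 41 counts in the Eed KO, too few for a fold, and Cldn5 was at 55 counts against 1 count, a ratio of 55 (95% counting interval 9.47 to 2210). The summed endothelial level was 15.5 and 14.9 CPM in controls and 25.9 and 47.0 CPM in the Eed KO, with Kdr the most abundant by TPM, against mesenchymal sums of 16700 CPM or more. Single genes of 3 lists were called lower, Pdgfra (-0.49), Lyz2 (-1.08) and the mesothelial gene Upk3b (-0.97). Of 8 mesenchymal, 3 macrophage and leukocyte and 4 mesothelial genes tested, 3, 2 and 2 had a positive log2 fold change, with medians of -0.03, 0.98 and 0.01. Smooth muscle (0 of 6), epithelium (0 of 7), enteric neural crest (0 of 6) and erythroid cells (0 of 4) gave no call by edgeR, with 4, 3, 0 and 2 genes at an unadjusted p under 0.05. Their medians were -0.52, 0.62, 0.32 and -1.97. Smooth muscle markers summed to 2853 and 2970 CPM in controls and to 1820 and 2059 CPM in the Eed KO. The part of these cells in the Tet2 value was not tested.

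In the intestine, Eed loss gave no call among the 7 genes. edgeR called 0 of 7, against 3.06% of all genes tested (431 higher and 66 lower) and 2.61% by the DEG rule; 1 of 7 had an unadjusted p under 0.05, and DESeq2 called 0. That gene was Tet2, with a log2 fold change of 0.55 (SE 0.23, 95% interval 0.03 to 1.08, edgeR adjusted p = 0.322), higher in 2 of 2 Eed KO libraries. Uhrf1 had -0.22 (SE 0.14), and the other 5 lay between -0.15 and 0.15. With the replicate block edgeR still called 0 of 7, while the count of all genes called went from 497 to 923. The median of the 7 was 0.00, and that of all genes 0.01. With 1 spike-in factor DESeq2 called 4 of 7, all lower: Dnmt1 (-1.04), Dnmt3a (-0.52), Tet1 (-0.73) and Uhrf1 (-0.60). The same fit called more genes in all than the 497 of the main fit, and most of them were lower. On the spike-in scale all 7 were called after the shift of 1.85, as were most genes tested, and Tet2 was 0.70 above the shifted median.

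Of 24 S phase and mitosis genes in the intestine 0 were called by edgeR and 9 had an unadjusted p under 0.05, with a median of -0.25. Cofactors (0 of 10), demethylation partners and repair (0 of 13), methyl-CpG readers (0 of 8) and methyl donor supply (0 of 8) gave no call, with 1, 3, 0 and 2 genes at an unadjusted p under 0.05 and medians of -0.03, 0.04, 0.00 and -0.08. Among the germline genes Sycp1 was again the only 1 of 11 called, in the lower direction, against 0.407% of all genes called lower. It was at 1.01 and 1.18 CPM in controls and at 0 and 0.0285 CPM in the Eed KO. Its 71 control counts against 1 give a ratio of 79.3 (95% counting interval 13.8 to 3180). The median of the 11 was 0.87, with 5 at an unadjusted p under 0.05.

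Some markers of other cells were also called in the intestine. Of 7 endothelial markers 3 were called higher, Cdh5 (6.95-fold), Tie1 (5.56-fold) and Cldn5 (5.52-fold), with summed levels of 15.9 and 20.8 CPM in controls and 51.1 and 50.8 CPM in the Eed KO, against 2.66% of all genes called higher. Of 7 epithelial markers Epcam was called higher (2.00-fold) and 4 had a positive log2 fold change. The summed epithelial level was 66.6 and 106 CPM in controls and 78.0 and 69.5 CPM in the Eed KO, which lay between them. Mesenchyme (0 of 8), smooth muscle (0 of 6), macrophages and leukocytes (0 of 3), enteric neural crest (0 of 6), erythroid cells (0 of 4) and mesothelium (0 of 4) gave no call by edgeR, with 4, 2, 1, 1, 1 and 1 genes at an unadjusted p under 0.05. Their part in the members' values was not tested.

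The test of whether Eed loss acts differently in the 2 organs gave no call among the 7. edgeR called 0 of 7, against 0.105% of all genes tested, and 0.462% of all genes by the DEG rule, which uses an adjusted p under 0.2 for this contrast. No member had an unadjusted p under 0.05, and DESeq2 called 0. Tet2 had the largest contrast in size, -0.64 (SE 0.32, 95% interval -1.38 to 0.11, edgeR adjusted p = 0.959), where a negative value means a larger effect in the stomach, and Tet1 had -0.46 (SE 0.28). The replicate block and the replicate block within genotype gave no call either, with 2 of 7 at an unadjusted p under 0.05 in each and 80 and 298 calls among all genes, against 17. So the call of Tet2 in the stomach and its absence in the intestine were not shown to differ. None of the 74 tested genes of the 6 related lists was called by edgeR in this contrast, and 1 had an unadjusted p under 0.05. Of 45 tested cell type markers 0 were called and 7 had an unadjusted p under 0.05. These 4 embryonic comparisons share libraries, the control groups in particular, and are not independent of each other.

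**Figure D3:**
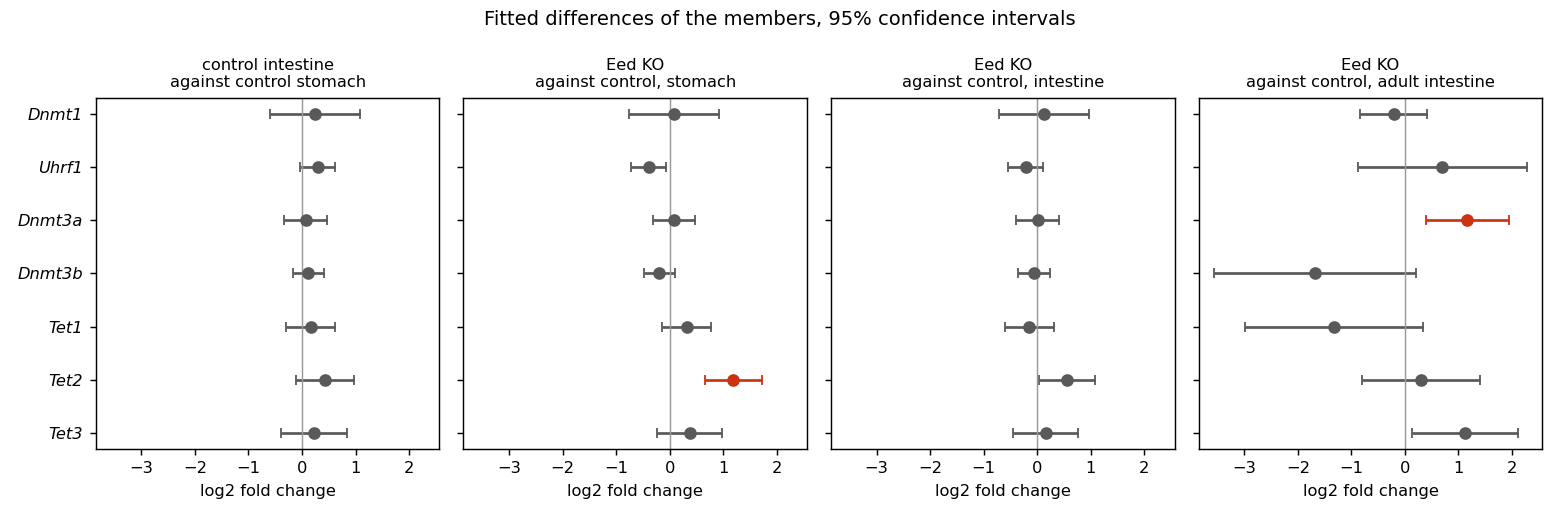
Log2 fold changes of the 7 genes in 4 comparisons (points) with 95% confidence intervals (bars), red where the edgeR adjusted p is under 0.05. Only Tet2 in the stomach (1.19) and Dnmt3a in adult intestine (1.16) are red, and the adult intervals are the widest.

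In adult intestine, Eed RNA itself did not pass the test between genotypes. The paper also shows an Eed deletion efficiency for cells isolated from this adult model, which was not examined here. Dnmt3a RNA was higher in the libraries labelled EED-KO. The log2 fold change was 1.16 (SE 0.33, 95% interval 0.39 to 1.94), a 2.24-fold difference, higher in 2 of 2 Eed KO libraries, with an edgeR adjusted p of 0.0429. As TPM the libraries nearly met, at 5.89 and 3.11 in controls and 5.91 and 7.54 in the Eed KO, with means of 4.50 and 6.73. Dnmt3a was the only gene of the 7 called, against 23.5% of all genes tested (2118 higher and 1412 lower), and it met the DEG rule, as did 19.6% of all genes. The call was lost without control replicate 2 (log2 fold change 0.79, edgeR adjusted p = 0.124), without Eed KO replicate 2 (0.88, 0.144), on the spike-in scale (0.81, 0.326, which is 1.23 above the shifted median) and in DESeq2 with 1 spike-in factor (0.75, 0.210). Over all alternatives the adjusted p ran from 0.000135 to 0.326.

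Tet3 had a log2 fold change of 1.12 (SE 0.42, 95% interval 0.14 to 2.11), higher in 2 of 2 libraries, and did not pass (edgeR adjusted p = 0.0970). Dnmt3b had -1.68 (SE 0.80, edgeR adjusted p = 0.175) and Tet1 -1.32 (SE 0.70, 0.222), both lower in 2 of 2 libraries, and Dnmt1 had -0.21, Uhrf1 0.70 and Tet2 0.30. Without a filter on low counts edgeR called 4 of the 7, Dnmt3a, Dnmt3b, Tet1 and Tet3. The count of all genes called moved by no more than 1.5 times in that setting. With 1 library left out, the log2 fold change ran from 0.794 to 1.661 for Dnmt3a and from -2.927 to -0.565 for Tet1. The median of the 7 was 0.30, and that of all genes 0.00.

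Of 66 tested genes of the related lists in adult intestine, edgeR called 10 higher and 3 lower, against 23.5% of all genes. In the stomach it called 0 higher and 11 lower of 74, against 7.91%. In adult intestine the share of higher calls among all genes went from 60.0% to 46.6% on the spike-in scale. Of 11 tested cofactors 1 was called higher and 2 lower by edgeR, with a median of 0.04. Dnmt3l, the catalytically inactive partner of the de novo enzymes, was at 30 and 29.6 CPM in controls and at 8.63 and 3.25 CPM in the Eed KO (log2 fold change -2.34, SE 0.44, edgeR adjusted p = 0.0100). Zfp57, which protects methylation at imprinted genes, was at 9.81 and 5.25 CPM in controls and at 0.703 and 1.39 CPM in the Eed KO (-2.81, SE 0.59, 0.0148). Hells, a chromatin remodeller needed for DNA methylation, was higher, at 5.42 and 7.29 CPM against 22.5 and 13.9 CPM (1.51, SE 0.35, 0.0225). None of these 3 overlapped between genotypes, nor did 65.3% of all genes tested. In the embryo, where libraries were scaled apart from the adult ones, Dnmt3l was at most 0.165 CPM.

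Of 11 tested demethylation partners and repair genes 3 were called higher and 0 lower, although the median was -0.46. Gadd45b was at 84.1 and 50.4 CPM in controls and at 210 and 314 CPM in the Eed KO (log2 fold change 1.96, SE 0.32, edgeR adjusted p = 0.00570). Gadd45g (1.34, SE 0.32, 0.0232) and Apex1, an endonuclease of base excision repair (1.06, SE 0.28, 0.0355), also passed by edgeR. Gadd45b and Gadd45g are also stress response genes. Of 8 methyl-CpG readers and 8 genes of methyl donor supply 0 were called by edgeR, with 1 and 2 at an unadjusted p under 0.05 and medians of -0.19 and 0.51.

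Of 4 tested germline genes Sycp1 was called lower, at 4.24 and 4.48 CPM in controls and at 0.10 and 0 CPM in the Eed KO, 122 counts against 1, a ratio of 100 (95% counting interval 17.6 to 3980), and 0 were called higher. Of 24 S phase and mitosis genes 6 were called higher and 0 lower, against 14.1% of all genes called higher and 9.39% lower, with a median of 1.13. E2f1 was at 1.76 and 2.1 CPM in controls and at 15.9 and 12.8 CPM in the Eed KO (log2 fold change 2.89, SE 0.37, edgeR adjusted p = 0.00221). Cdt1 (2.69, SE 0.32, 0.00164) and Ccne1 (1.86, SE 0.45, 0.0247) followed by edgeR. The summed level of the 24 genes was 286 to 319 CPM in adult controls and 456 to 767 CPM in the adult Eed KO. Every embryonic library held 2715 CPM or more, but embryonic and adult libraries were scaled apart and were not compared by a test. As summed TPM the adult controls were at 207 and 225 and the Eed KO at 396 and 232, so that replicate 2 nearly met the controls. In that library Gmnn, at 2.16 CPM, was below both controls (4.46 and 2.94 CPM).

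Markers of other cells were called in adult intestine in a comparison where edgeR called 14.1% of all genes higher and 9.39% lower. All 10 macrophage and leukocyte markers were called higher, among them C1qa (41.8-fold), Cd68 (34.2-fold) and Adgre1, listed as Emr1 (32.0-fold). Of 7 tested mesenchymal markers 4 were called lower, Pdgfra (-1.79), Col1a1 (-1.65), Col3a1 (-1.60) and Col1a2 (-1.31). Of 6 smooth muscle markers 4 were called higher, among them Cnn1 (1.34), Actg2 (1.14) and Myh11 (1.04), and of 7 tested lymphocyte markers Cd4 was higher (4.65) while Jchain, listed as Igj (-2.12), and Cd79a (-1.23) were lower. Of 7 endothelial markers 2 were called higher, Cldn5 (2.61) and Pecam1 (1.43). Of 4 tested enteric neural crest markers 1 was called higher, the neuronal gene Elavl4, at 2 and 3 counts in controls and 99 and 107 counts in the Eed KO. Epithelium (0 of 7), erythroid cells (0 of 1) and mesothelium (0 of 4) gave no call by edgeR, with 0, 0 and 2 genes at an unadjusted p under 0.05. Values in parentheses without a unit are log2 fold changes with an edgeR adjusted p under 0.05. All adult values of the 7 genes come from libraries that differ in this marker RNA, and the part of each cell type in them was not tested.

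At the 5′ end of the gene model, as the count files give it, 4 of the 7 genes had a peak within 1000 bp in every list: Dnmt3a, Dnmt3b, Uhrf1 and Tet2. Among all 41670 genes placed, 45.4% had such a peak in control intestine, 47.5% in Eed KO intestine, 46.3% in control stomach and 47.4% in Eed KO stomach. Among the 16191 genes that were both placed and tested in the embryo the shares were 88%, 89.1%, 88.4% and 89.1%. The other 3, Dnmt1, Tet1 and Tet3, have gene models that begin 6909, 11794 and 17406 bp before the nearest RefSeq start with a peak. Counting any RefSeq start, an alternative chosen after seeing the data, all 7 had a peak in every list. The share of all genes was not counted under this setting, so that count has no background to be read against. At the Tet1 start the fold enrichment was 5.64, 5.39, 5.10 and 5.80 in control intestine, Eed KO intestine, control stomach and Eed KO stomach, and at the Tet3 start 5.35, 5.41, 6.05 and 5.75. The RNA and the peak lists come from sorted cells of the same kind, but no peak height was tested.

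Tet1 held a peak about 33.1 kb into the gene model that was higher than the peak at its start, with fold enrichments of 7.44, 7.32, 7.93 and 7.90. Tet3 held a peak between 2.5 and 2.75 kb into its gene model at 4.47 and 4.38 in control intestine and stomach and at 3.57 and 3.44 in the Eed KO. Dnmt3a held between 12 and 15 peaks in each list. The peak about 37.5 kb in was the highest in 3 lists (6.17 in control intestine, 6.62 in Eed KO intestine and 6.46 in Eed KO stomach), and in control stomach a peak 44.3 kb in was higher (6.90).

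**Figure D4:**
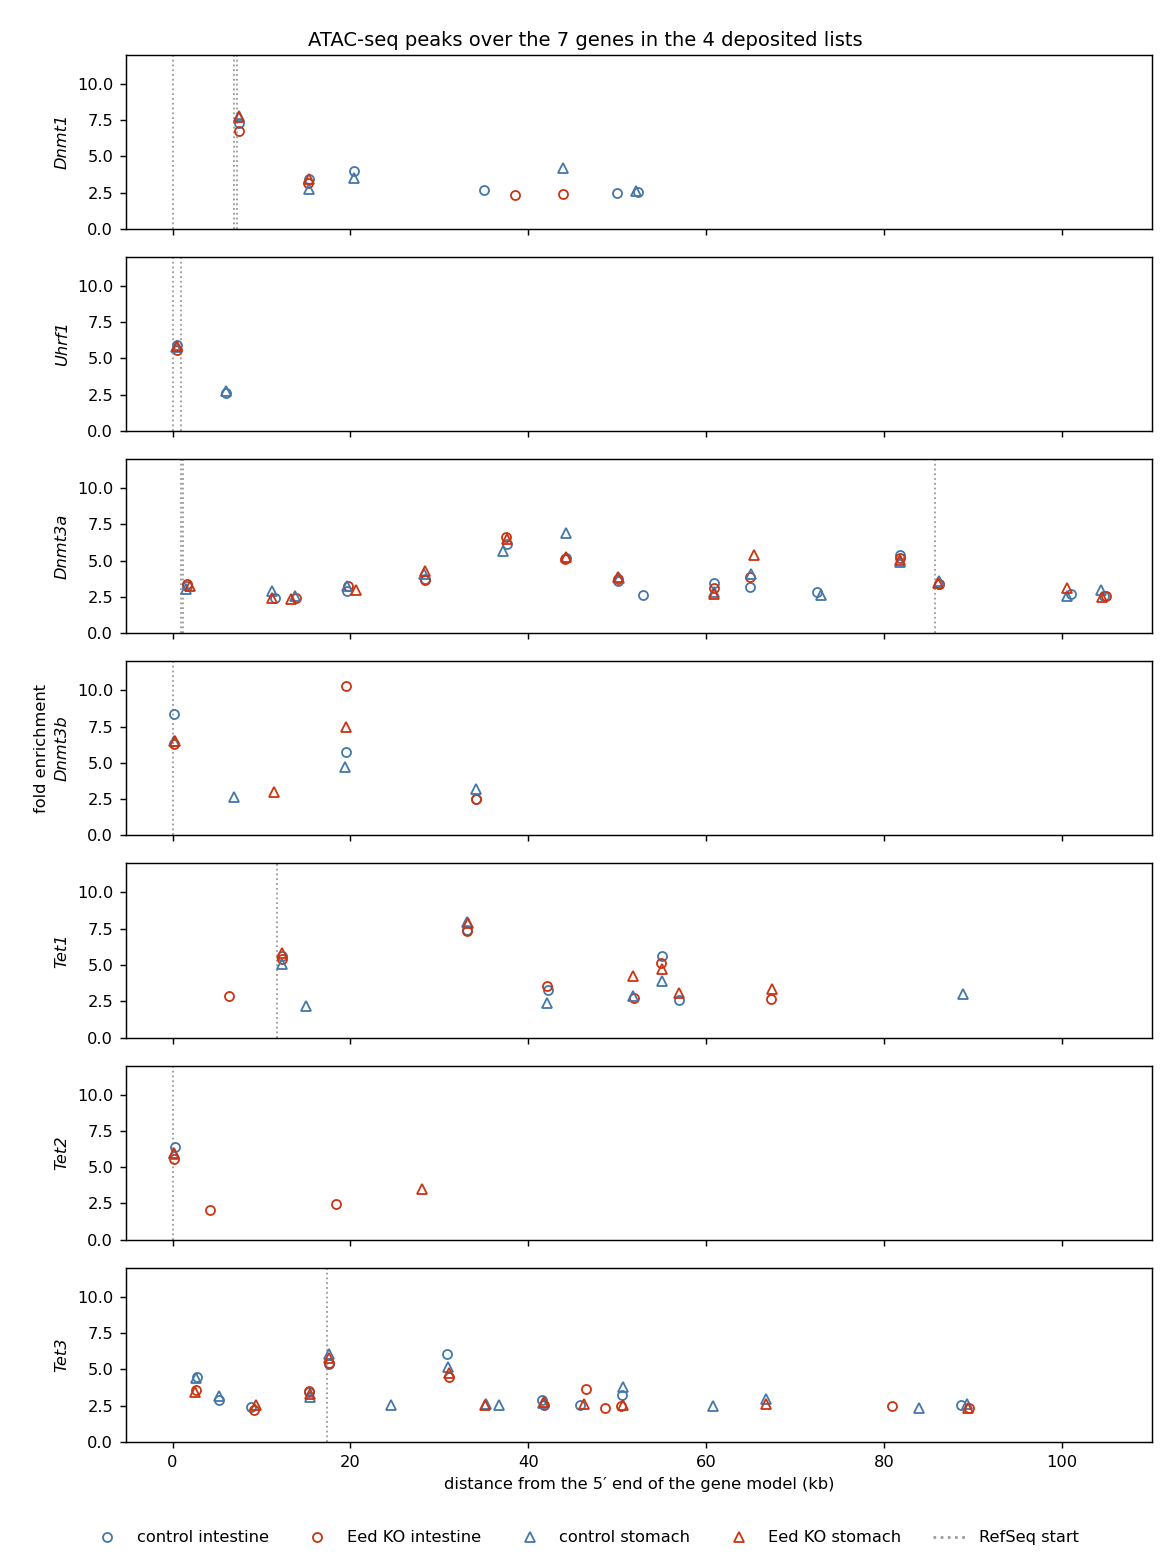
Fold enrichment of each ATAC-seq peak over the 7 genes (vertical axis) against the distance of its middle from the 5′ end of the gene model in kb, blue for control and red for Eed KO, circles for intestine and triangles for stomach, with RefSeq starts dotted. The Dnmt3b peak about 19.5 kb in is higher in the Eed KO (10.3 and 7.44) than in controls (5.78 and 4.71).

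The promoter windows of the 7 genes ranged widely in CG content. Over all 32851 windows the median was 7 CG and the upper quartile 20. Tet2 (57), the outer Dnmt3a windows (46 and 47), the innermost Dnmt1 window (33), the inner Uhrf1 window (33) and Dnmt3b (30) lay above that quartile, as did Tet3 with 22. Below it were the innermost Dnmt3a window (18), Tet1 (17), the middle Dnmt1 and outer Uhrf1 windows (12 each) and the outermost Dnmt1 window, which no peak touched (2). Other letters searched on both strands were CACGTG, found in 7.15% of all windows and in 1 of the 12 (Dnmt3a), CCAAT, found in 37.4% of all and in 5 of the 12, and the GC box GGGCGG, found in 35.7% of all and in 10 of the 12. Every match of the GC box or of CACGTG holds a CG, and the shares of all windows are not matched for CG content. The 2 outer windows of Dnmt3a overlap each other.

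**Figure D5:**
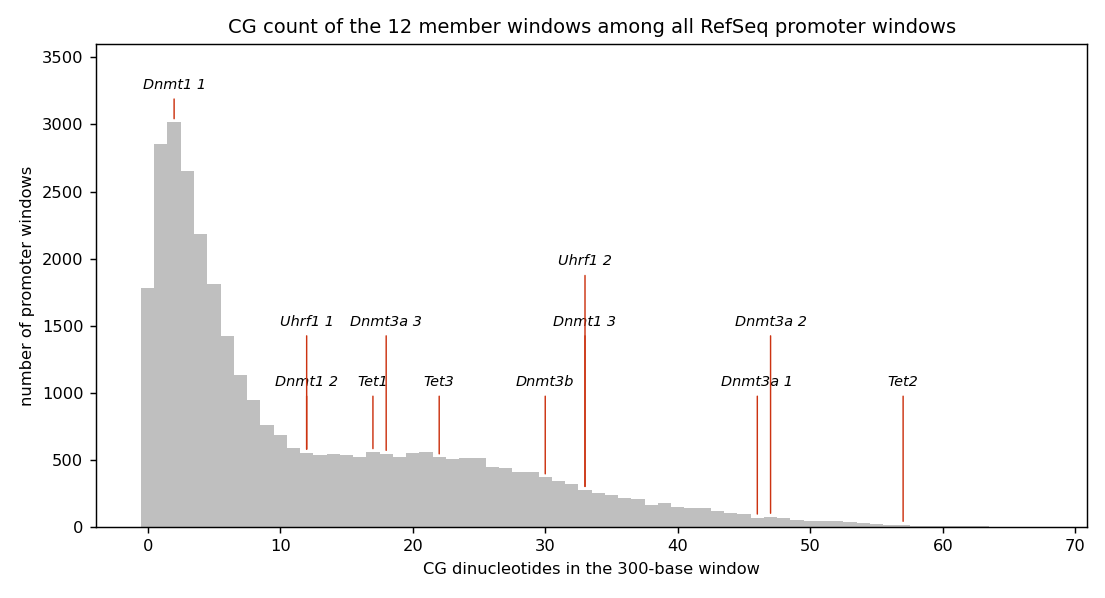
Number of RefSeq promoter windows (vertical axis) by the number of CG they hold in 300 bases, grey bars for all 32851 windows, with the 12 windows of the 7 genes marked and numbered from the outermost start where a gene has several. Tet2 lies at 57, far above the median of 7, and the outermost Dnmt1 window lies at 2.

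The genes most like each member were sought over the 8 embryonic libraries by Pearson's r of log2(CPM + 0.5), among 13385 genes, as a description. Closest to Dnmt1 were Mdc1 (0.995), Kif4 and Pak4, to Uhrf1 Ptbp1 (0.992), Ncapg and Psip1, to Dnmt3a Glg1 (0.992), Polr1a and Hip1, and to Dnmt3b Tkt (0.987), Clic4 and Gfm1. Closest to Tet1 were Dip2a (0.977), Ppp6r2 and Nf1, and to Tet3 Kmt2a (0.993), Trak1 and Eif4g3. Closest to Tet2 were Ccdc122 (0.984), Nefm (0.982), which encodes a neurofilament, and Ccdc91 (0.980). Nefm was at 9.19 and 8.77 CPM in control stomach and at 21.4 and 24.8 CPM in Eed KO stomach. It was picked by its r with Tet2 over these libraries, so a similar stomach pattern is no separate result. The 8 libraries share genotype, organ and the split between the Eed KO replicates, so a high r over them is easily reached.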

How the data were processed

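Processed files of 12 RNA libraries and 4 ATAC-seq peak lists were used, all on mm10 (GRCm38). The authors made the counts from reads trimmed with Trimmomatic 0.32 and aligned with STAR 2.5.1b, using featureCounts on GENCODE vM4 (1.5.0 in the headers of the adult files; the sources conflict on versions); the deposited counts are raw, stranded in the embryonic and unstranded in the adult files. The authors aligned ATAC-seq reads with BWA, pooled replicates and called broad peaks with MACS2 2.1.2, so the deposited fold enrichment is a ratio of a peak over the local background. The deposited -log10 q values come from the same MACS2 calls.

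Counts were tested with edgeR 4.0.16 in R 4.3.3 (TMM scaling, filterByExpr, quasi-likelihood test, 1 mean per group, Benjamini-Hochberg adjustment over all genes tested), with all 8 embryonic libraries in 1 fit and the 4 adult libraries in another. A gene was called at an adjusted p under 0.05, and DEGs also needed a log2 fold change over 1 in size, with an adjusted p under 0.2 for the interaction; the study applied these thresholds to DESeq2 after RUV-seq on spike-ins. The typical spread between replicates (biological coefficient of variation) was 15.8% in the embryo and 29.1% in adults. DESeq2 1.42.0 and other scalings, filters and library sets were the alternatives. Embryonic libraries share replicate numbers, and the methods take stomach and intestine from each animal. Differences between replicates correlated at 0.714 between the Eed KO organs, 0.34 between the control organs and 0.104 to 0.24 between the other embryonic groups. Values with the replicate number as a block are therefore given where they move a call, a choice made with the calls of both fits known. Which embryos made each library is not given. TPM used the gene lengths of the adult files. Tables and figures used Python 3.11.15, pandas 2.3.3, numpy 2.4.6 and matplotlib 3.10.9.

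The 7 genes, 6 lists of related genes (cofactors, demethylation partners and repair, methyl-CpG readers, methyl donor supply, germline genes, S phase and mitosis genes) and 9 lists of cell type markers were chosen with earlier results of these data known. All 7 genes and Eed are named everywhere. From each other list up to 3 called genes per direction with a mean of at least 1 CPM are named by size of change, and called DEGs where a list has at most 5. The 3 genes most like each member by Pearson's r are also named. Peaks were counted within 1000 bp of a gene's 5′ end at an overlap of at least 1 bp. Promoter windows were taken from RefSeq (GRCm38.p6).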

Additional observations from a re-analysis of the deposited data

Results flagged for a closer look

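Some genes had Eed KO values on opposite sides of the controls in the embryo and in the adult intestine, with no overlap between genotypes in CPM in either. Such a lack of overlap is common with 2 libraries per group: 55% of all genes tested in the stomach, 38.3% in the intestine and 65.3% in adult intestine had it. Tet1 had a log2 fold change of 0.32 in the stomach and -1.32 in adult intestine, and neither passed the test (edgeR adjusted p = 0.398 and 0.222). Cdc6 had -0.53 in the stomach, -0.33 in the intestine and 1.21 in adult intestine, and Hells had -0.19, -0.19 and 1.51. E2f1 had -0.40 in the stomach, -0.18 in the intestine and 2.89 in adult intestine. Apex1 had -0.22, Cdt1 -0.28 and Ccne1 -0.42 in the stomach, against 1.06, 2.69 and 1.86 in adult intestine. Among the embryonic values only that of Cdc6 in the stomach passed (edgeR adjusted p = 0.0396), and among the adult values those of Tet1 and Cdc6 did not pass. The difference between the ages was not tested for any of these genes, because age, Cre driver, library kit and RNA of marker genes differ together.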

How the results depend on the processing

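Over 35 log2 fold changes of the 7 genes, 455 alternatives were computed: 380 kept the direction and the side of the threshold, 9 lost a call, 17 gained a call and 49 changed direction. Without the settings that use the spike-in, 342 of 385 kept both. The cause of the changes listed here was not tested.

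With spike-in totals as library sizes, edgeR called 7 of the 7 genes for the stomach, 7 for the intestine and 0 for adult intestine. Values then changed direction for Dnmt3b (2.21) and Uhrf1 (2.03) in the stomach, Dnmt3b (1.84), Uhrf1 (1.72) and Tet1 (1.83) in the intestine, and Dnmt1 (-0.40), Dnmt3b (-0.37) and Uhrf1 (-0.31) in the interaction; the shifts of the median are in the report. With 1 spike-in factor, DESeq2 called 3 for the stomach, 4 for the intestine and 0 for adult intestine. Directions then changed for Dnmt3a between the control organs (-0.024), for Dnmt1 (-1.32), Dnmt3a (-0.56), Tet1 (-0.40) and Tet3 (-0.56) in the stomach, for Dnmt1 (-1.04), Dnmt3a (-0.52) and Tet3 (-0.63) in the intestine, for Dnmt3a in the interaction (0.041) and for Tet2 in adult intestine (-0.18). Dnmt3a in the intestine, at 0.00, changed sign with DESeq2 (-0.001), with only the compared groups fitted (-0.002) and with the replicate block (-0.012). Without a filter on low counts 4 were called in adult intestine.

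With the replicate block 2 of the 7 were called in the stomach (Uhrf1 and Tet2), and with the replicate block within genotype 1 between the control organs (Uhrf1). The block changed no other call of the 7 genes. Between adult groups, which share only replicate numbers, differences between replicates correlated at -0.0734.

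Leaving out 1 library, or both Eed KO libraries of 1 replicate number (chosen after seeing the data), leaves a lone library that is assumed to vary like the others. The number of the 7 called then ran from 0 to 1 in the stomach and from 0 to 2 in adult intestine. Directions were not kept in the stomach for Dnmt1 (-0.34 to 0.39) and Dnmt3a (-0.079 to 0.235), and in the intestine for Dnmt1 (-0.49 to 0.55), Dnmt3a (-0.26 to 0.23), Dnmt3b (-0.176 to 0.046), Tet1 (-0.47 to 0.12) and Tet3 (-0.30 to 0.50). In the interaction they were not kept for Dnmt1 (-0.57 to 0.48), Dnmt3a (-0.35 to 0.14), Uhrf1 (-0.041 to 0.359) and Tet3 (-0.68 to 0.12), nor in adult intestine for Uhrf1 (-0.68 to 1.39) and Tet2 (-0.24 to 1.17).

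Counts of all genes called moved by over 1.5 times in these cases. Between control organs the count was 1107, and 155 by spike-in scaling, 1732 with the spike-in factor, 1728 with the block, 2595 with the block within genotype and 394 to 538 with libraries left out. For the stomach it was 1283, and 15438 by spike-in scaling (99.9% higher), 2474 with the block and 367 to 1747 with libraries left out. For the intestine it was 497 (86.7% higher), and 13688 by spike-in scaling (99.8%), 1010 with the spike-in factor (36.8%), 889 by DESeq2, 1033 without a filter, 923 with the block, 253 with only the compared groups and 74 to 551 with libraries left out. For the interaction it was 17 (35.3% higher), and 162 by DESeq2 (47.5%), 264 with the spike-in factor (51.5%), 161 without a filter, 80 with the block, 298 with the block within genotype and 4 to 19 with libraries left out, while spike-in scaling gave 19 (0%). For adult intestine it was 3530, and 2276 with the spike-in factor. Between control organs 35.1% of calls were higher, and 45.2% by spike-in scaling.

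With any RefSeq start (chosen after seeing the data), 7 of the 7 had a promoter peak in each of the 4 lists, against 4. The share of all genes was not counted for that setting. A window of 5000 bp gave 5 or 6, against 93.6% to 94.6% of the genes both tested in the embryo and placed. A -log10 q of at least 5 gave 4 (84.6% to 86.4% of those genes). A peak over the 5′ end itself gave 3 (81.3% to 83.4%).

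With 2 libraries per group, a gene of low count such as Dnmt3b in the adult Eed KO (6 and 25 counts) carries a wide interval, and small changes cannot be told from none. Protein and DNA methylation were not analysed here. The peak lists have no replicates, so a difference in peak height has no error. Marker RNA differs between the adult genotypes, and its part in the values was not tested.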
